A study of Oryza sativa with 12 samples.

Results

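Gene expression in the leaves of well-watered plants of the rice mutant osnox2 was compared with that in wild-type plants (WT) on 6 Affymetrix arrays out of the 12 of the study. The 3 osnox2 and the 3 WT control arrays were taken by their titles, and each array was 1 biological replicate. The plants were Oryza sativa aged 2.5 months, and RNA came from the youngest leaf that was fully expanded. osnox2 is a T-DNA insertion mutant, a line in which a piece of transferred DNA sits in the genome. Control plants of both genotypes were sampled on day 0 of a drought treatment, at a soil moisture of 47.3 ± 1.9%, and the other 6 arrays came from day 15 of drought, at 8.5 ± 2.1%. A mutant and a WT plant shared a pot, so they shared the soil and its water. With 1 mutant line, an effect of the disrupted gene cannot be told apart from any other difference between the line and WT.

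osnox2 is named for a plant NADPH oxidase. These membrane enzymes, called respiratory burst oxidase homologues (RBOH) in plants, pass electrons from NADPH across the plasma membrane to oxygen and so make superoxide outside the cell. Calcium binding, phosphorylation by calcium-dependent kinases and small GTPases of the ROP family switch them on, and the hydrogen peroxide that follows acts as a signal in stomatal closure, defence and growth. The study's title names OsRbohA as the gene at issue. No gene carries this name in the annotation, and its signal is not reported.

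Values are log2 MAS5 signals, in which a difference of 1 is a 2-fold change, and no level is set against that of another probe set. On every array the trimmed mean signal was 497 or 498 and the median log2 signal lay between 5.08 and 5.43. No detection calls were used, and signals below their array's median are here called near background. Precision is limited by having 3 arrays in a group. In bulk leaf tissue fewer cells of a type and less RNA per cell cannot be told apart. The labels call the replicates biological but do not say whether they came from separate pots, so p-values measure the spread between these arrays. As a check of the tissue, the 11 probe sets for light-harvesting, photosystem and Rubisco small subunit genes, 9 of them kept, read up to 15.69. The summed signal of all 11 lay between 17.02 and 17.47 (log2) in WT and between 17.13 and 17.79 in osnox2. Of 9 probe sets for seed storage proteins, 4 passed the filter on low values. The summed signal of all 9 was 12.47 to 12.7 in WT and 12.21 to 12.72 in osnox2. The 9 probe sets ranged from 0.00 to 12.42. The leaf senescence genes SGR, NYC1 and NOL summed to 13.36 to 14.01 in WT and 12.85 to 13.71 in osnox2. The array holds 64 control probe sets for reporter genes, which are used to mark introduced DNA. The 1 with the widest gap between the genotypes read 12.45 to 13.32 on the 6 osnox2 arrays and 0.73 to 2.97 on the 6 WT arrays of both conditions. It was picked by that gap, so it is no independent check of the labels, and whether the T-DNA carries it was not tested.

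The 6 control arrays did not form 2 clean groups by genotype. LHY, a transcription factor of the morning clock, read 13.79 on WT replicate 1 and 13.51 and 13.57 on osnox2 replicates 1 and 2, but 7.43 and 7.31 on WT replicates 2 and 3 and 8.26 on osnox2 replicate 3. High and low LHY thus crossed the genotypes. PCL1, a clock gene of the evening that acts with the repressor complex of the night, was the mirror image. It read 6.08 on WT replicate 1 and 6.16 and 5.59 on osnox2 replicates 1 and 2, against 14.68, 14.99 and 14.71 on the arrays with low LHY. PRR1, the rice relative of the evening gene TOC1, read 9.13 to 9.34 on the first set and 12.45 to 12.67 on the second, without overlap. Correlations between arrays were 0.932 to 0.954 within the LHY-high set, 0.943 to 0.959 within the LHY-low set and 0.882 to 0.888 between the sets. An osnox2 and a WT array of the same set correlated at 0.932 to 0.944, above every pair of arrays of different sets. Over the 32012 probe sets kept, the clock set accounted for 51.6% of the sum of squares among the control arrays and genotype for 19.0%. These 2 shares are not independent because the sets hold unequal numbers of each genotype. The clock sets were also defined by expression on these same arrays. Any split of 6 arrays takes some share, so the 19.0% does not by itself measure an effect of genotype, and neither share was tested.

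**Figure D1:**
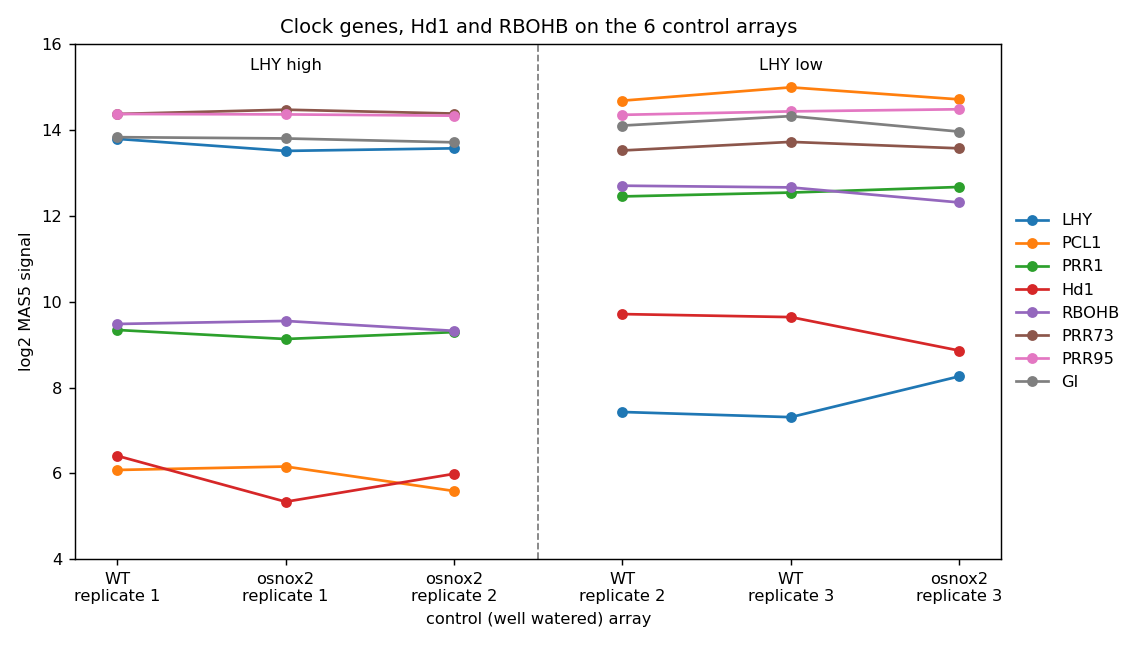
Log2 MAS5 signal (vertical axis) of 6 clock genes, the flowering regulator Hd1 and the NADPH oxidase gene RBOHB on each of the 6 control arrays, ordered by LHY set and joined within a set. LHY falls from 13.51 or more on the left to 8.26 or less on the right, PCL1 runs the other way, and PRR95 stays between 14.33 and 14.48.

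Clock-matched arrays were therefore compared as well: osnox2 replicates 1 and 2 with WT replicate 1 (LHY high), and osnox2 replicate 3 with WT replicates 2 and 3 (LHY low). Within the sets the clock genes themselves were close between the genotypes. PCL1 differed by -0.21 (osnox2 minus WT) in the LHY-high pairs and by -0.13 in the LHY-low pairs, PRR1 by -0.13 and 0.18, PRR73 by 0.05 and -0.05 on one probe set and -0.04 and -0.31 on the other, GI by -0.07 and -0.25, and PRR95 by -0.02 and 0.09. PRR37 differed by -0.10 and -0.14 on its brighter probe set and by -0.27 and -0.26 on the other. LHY differed by -0.25 in the first set and by 0.89 in the second. None of these genes passed the test in either fit described below. A second probe set for LHY read 0.55 to 2.62 on the 6 arrays and did not pass the filter.

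RBOHB was the only gene with the name of an NADPH oxidase. It read 9.48, 12.70 and 12.66 on WT replicates 1 to 3 and 9.55, 9.32 and 12.31 on osnox2 replicates 1 to 3. The low readings were those of the LHY-high arrays in both genotypes, and the groups overlapped. Pooled, osnox2 minus WT was -1.22 ± 0.89 (limma adjusted p = 0.777), and with a term for the clock set it was -0.21 ± 0.12 (limma adjusted p = 0.633). The within-set differences were -0.05 and -0.37. On the drought arrays, all of which had low LHY, RBOHB read 12.61, 12.60 and 12.28 in WT and 12.11, 12.16 and 12.16 in osnox2, a difference of -0.36 whose groups did not overlap but which did not pass the test (limma adjusted p = 0.273 on the drought arrays alone). RAC7, a small GTPase of the ROP family, read 6.62, 6.62 and 6.96 in WT and 6.16, 5.38 and 5.77 in osnox2 under control conditions. Its groups did not overlap, as for 4.92% of all probe sets in this direction, and its difference of -0.94 ± 0.41 with the clock term did not pass (limma adjusted p = 0.506). Of the 8 kept probe sets of NADPH oxidase and ROP genes none was called in either fit, and their median with the clock term was -0.17, against -0.03 over all probe sets.

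The question of the pooled comparison is how watered osnox2 leaves differed from WT. In osnox2 28 of 32012 probe sets were higher and 14 lower at an adjusted p under 0.05 (limma, two-sided, all 12 arrays sharing 1 estimate of the spread), 0.0875% and 0.0437% of those tested. The median difference over all probe sets was -0.06. Of the 28 higher probe sets 8 matched 1 gene of the annotation, for 7 genes, and none of those genes has a symbol. Of the 14 lower ones 7 matched 1 gene, for 6 genes, and 3 of them have one: JAZ2, METK3 and CPK21. The median of the higher calls was 3.86 and that of the lower ones -2.54. Among calls that match 1 gene the median sizes were 2.12 and 2.62, and the call with the largest size, -10.49, was a lower one. In 15 of the 28 higher calls the WT mean was below the median of the arrays, so the size of those differences rests on signals near background. Leaving out osnox2 control replicate 3 raised the number of calls to 1249 and leaving out WT control replicate 1 raised it to 173, while leaving out any other control array lowered it to between 13 and 16.

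LOC4331398 (chromosome 3, 894717 to 896160) stood highest. Its first probe set read 4.52, 3.62 and 5.01 in WT and 13.21, 13.10 and 12.75 in osnox2, and its second, which may share probes with related transcripts, read 5.12, 5.12 and 5.01 against 13.28, 13.25 and 13.27. Every osnox2 control array read above 12.7 and no WT control array above 5.12, close to the array medians. The differences were 8.64 ± 0.30 (limma adjusted p = 3.55e-07) and 8.18 ± 0.14 (limma adjusted p = 3.31e-10), called without each of the 12 arrays in turn. The 6 drought arrays showed the same split, with differences of 8.68 and 8.37. Neither probe set passed the filter on the WT arrays alone. Both were kept through osnox2 arrays, drought ones included, so these drought values are no separate support. With an offset of 64 added to the signals the 2 differences were 6.6 and 6.66.

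LOC4340325 (chromosome 6, 4365204 to 4367082) read 4.95, 3.27 and 5.16 in WT and 10.79, 10.75 and 11 in osnox2 on the probe set that was called, a difference of 6.39 ± 0.68 (limma adjusted p = 0.00486). It was called without each array in turn, and under drought it differed by 7.54. This probe set too was kept only through osnox2 arrays, drought ones included, so its drought value is no separate support. A second probe set of the same gene did not follow: its means were 7.84 in WT and 7.55 in osnox2, a difference of -0.29 (limma adjusted p = 0.803). The 2 probe sets read the gene differently, and the annotation does not say which transcripts each detects. LOC4337401 (chromosome 4, 35092455 to 35096720) read 4.87, 3.27 and 4.68 in WT and 7.35, 7.13 and 8.17 in osnox2, without overlap. Its difference of 3.28 ± 0.49 (limma adjusted p = 0.0448) was 1.58 with the offset of 64, and its call was lost in 10 of the 12 fits that left out 1 array. No WT array of either condition read above its own median for LOC4337401. Its probe set was therefore kept only through osnox2 arrays, drought ones included.

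The other 4 genes that were higher showed smaller differences at brighter signals. LOC4329559 (chromosome 2, 20126389 to 20127385) read 12.88, 12.80 and 12.64 in WT and 13.73, 13.74 and 13.73 in osnox2, and LOC4326755 (chromosome 1, 8059057 to 8067363) read 11.84, 11.63 and 11.47 in WT and 12.60, 12.65 and 12.58 in osnox2. In both genes the lowest osnox2 array was above the highest WT array by more than the range of either group. Both differences were 0.96 (SE 0.12 and 0.11, limma adjusted p = 0.016 and 0.0131), close to 2-fold. Their calls were lost in the pooled fit without osnox2 control replicate 1 or 2 or WT control replicate 2 or 3, with an adjusted p of at most 0.101. A second probe set of LOC4326755 gave 0.94 (limma adjusted p = 0.0733), and it was called with the clock term described below (0.81, limma adjusted p = 0.0227). LOC4343067 (chromosome 7, 14676886 to 14681220) and LOC4323884 (chromosome 1, 29263561 to 29268159) differed by 0.93 ± 0.14 (limma adjusted p = 0.0448) and 0.91 ± 0.14 (limma adjusted p = 0.0485), on probe sets whose suffix marks possible cross-hybridisation. Their other probe sets gave 0.86 for the first gene, and 1.14 and 0.91 for the second, none of them called. Both calls were lost in 10 of the 12 fits that left out 1 array.

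**Figure D2:**
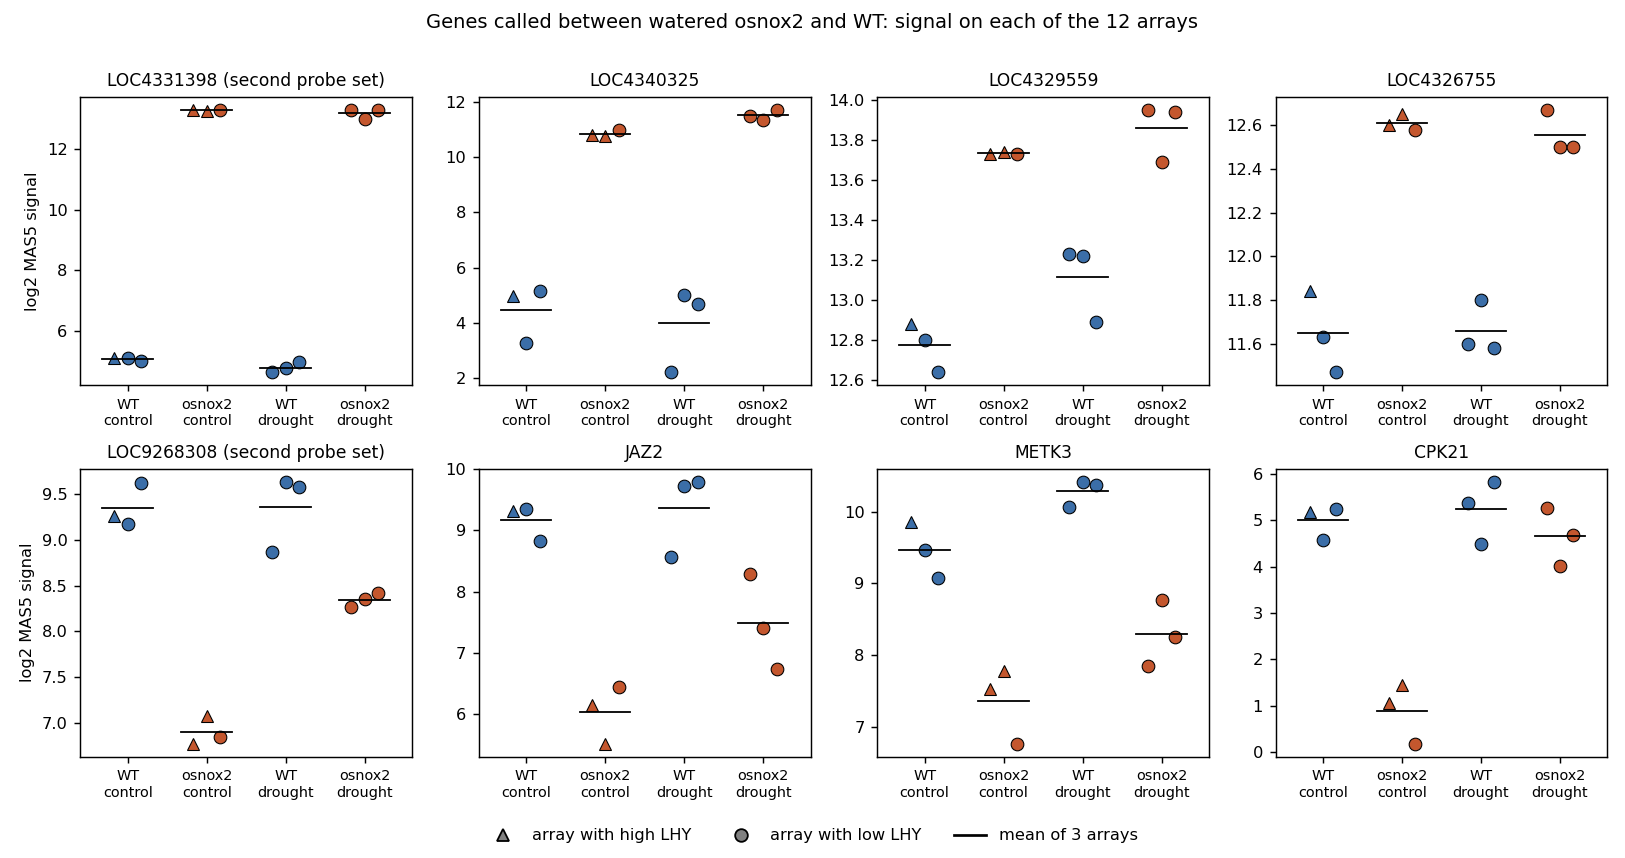
Log2 MAS5 signal (vertical axis, a different range in each panel) of 8 of the genes called in the pooled comparison, with 1 point for each of the 12 arrays and a bar at the mean of each group of 3. The upper row holds genes that were higher in osnox2 and the lower row genes that were lower, and only CPK21 has overlapping genotypes under drought, at 4.48 to 5.83 in WT and 4.01 to 5.26 in osnox2.

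Among the genes that were lower in osnox2, JAZ2 (chromosome 7, 2815984 to 2818681) encodes a JAZ protein, a repressor that binds the transcription factors of the jasmonate response and is destroyed when the hormone is sensed. It read 9.32, 9.34 and 8.82 in WT and 6.15, 5.52 and 6.44 in osnox2. The gap between the groups was wider than the spread within either, and JAZ2 was lower in both clock sets, by -3.48 in the LHY-high pairs and by -2.64 in the LHY-low pairs. The difference was -3.12 ± 0.44 (limma adjusted p = 0.0359) pooled and -3.06 ± 0.46 (limma adjusted p = 0.0364) with the clock term. The pooled call was lost in 7 of the 12 fits that left out 1 array, where the adjusted p reached 0.144. Under drought JAZ2 read 8.57, 9.72 and 9.79 in WT and 8.29, 7.41 and 6.74 in osnox2, a difference of -1.88 that did not pass (limma adjusted p = 0.199 on the drought arrays alone).

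METK3 (chromosome 1, 10682762 to 10685433) encodes an S-adenosylmethionine synthetase, which makes the methyl donor of the cell and the precursor of ethylene and polyamines. It read 9.85, 9.46 and 9.07 in WT and 7.53, 7.77 and 6.76 in osnox2, without overlap. In the pooled comparison it was lower by -2.10 ± 0.31 (limma adjusted p = 0.0448), a call lost in 9 of the 12 fits that left out 1 array. With the clock term it was lower by -2.35 ± 0.24 (limma adjusted p = 0.00322), and that call was kept without each of the 12 arrays. The clock sets gave -2.20 and -2.50. On the drought arrays METK3 read 10.07, 10.42 and 10.38 in WT and 7.84, 8.77 and 8.25 in osnox2. The drought difference of -2.0 passed the test on the drought arrays alone (limma adjusted p = 0.0382) and missed it in the fit of all 12 (limma adjusted p = 0.0533). METK3 was the only called gene with a symbol among the lower calls that was also called on the drought arrays alone.

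LOC9268308 (chromosome 7, 15130888 to 15132164) was lower on both of its probe sets. The brighter one read 9.26, 9.18 and 9.63 in WT and 6.77, 7.07 and 6.84 in osnox2, a difference of -2.46 ± 0.22 (limma adjusted p = 0.00131) that was called without each of the 12 arrays. Its dimmer probe set gave -4.53 ± 0.61 (limma adjusted p = 0.0269), or -1.97 with the offset of 64, and its call was lost in 8 of the 12 fits that left out 1 array. Under drought the differences were smaller, at -1.02 and -2.90, and neither was called. The dimmer probe set did not pass the filter on the osnox2 arrays alone. It was kept through WT arrays, drought ones included, so its -2.90 is no separate reading. CPK21 (chromosome 8, 27201630 to 27205951), a calcium-dependent protein kinase, read 5.18, 4.57 and 5.23 in WT and 1.06, 1.44 and 0.18 in osnox2. None of these signals was above 5.23, close to the array medians, and the difference of -4.10 ± 0.64 (limma adjusted p = 0.0485) was -0.55 and not called with the offset of 64 (limma adjusted p = 0.426). Its pooled call was lost in 11 of the 12 fits that left out 1 array. CPK21 also missed the threshold with the clock term (limma adjusted p = 0.051), and under drought it differed by -0.58. It too did not pass the filter on the osnox2 arrays alone, so its drought value is no separate reading. LOC4334899 (chromosome 4, 249021 to 251869) and LOC4350507 (chromosome 11, 18660408 to 18661566) were lower by -2.62 ± 0.41 and -1.50 ± 0.23 (limma adjusted p = 0.0485 for both), calls that were lost in 10 and in 9 of the 12 fits without 1 array.

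The clock-matched comparison asks how the genotypes differed once the clock set was allowed for. It fits 1 genotype difference as an average over the sets, so a call does not show a difference in each set. With a term for the set in the fit, osnox2 was higher in 45 probe sets and lower in 22, 0.141% and 0.0687% of those tested, and the median over all probe sets was -0.03. Of the 42 pooled calls 39 were called here as well, all in the same direction, and 28 probe sets were called here only. All 45 and all 22 had the same sign in each of the 4 differences between clock-matched arrays, which come from the same arrays as the calls and are no separate support for them. Over all probe sets, all 4 differences were above 0 in 11.2% and below 0 in 13.9%, and the 2 sets went in opposite directions in 33.6%. WT replicate 1 and osnox2 replicate 3 each enter 2 of the 4 differences, so the 4 are not independent. The number of calls was 1488 without osnox2 control replicate 3 and 144 without WT control replicate 1. Without osnox2 control replicate 1 or 2 the count was 20 or 21, and without WT control replicate 2 or 3 it was 31 or 23.

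**Figure D3:**
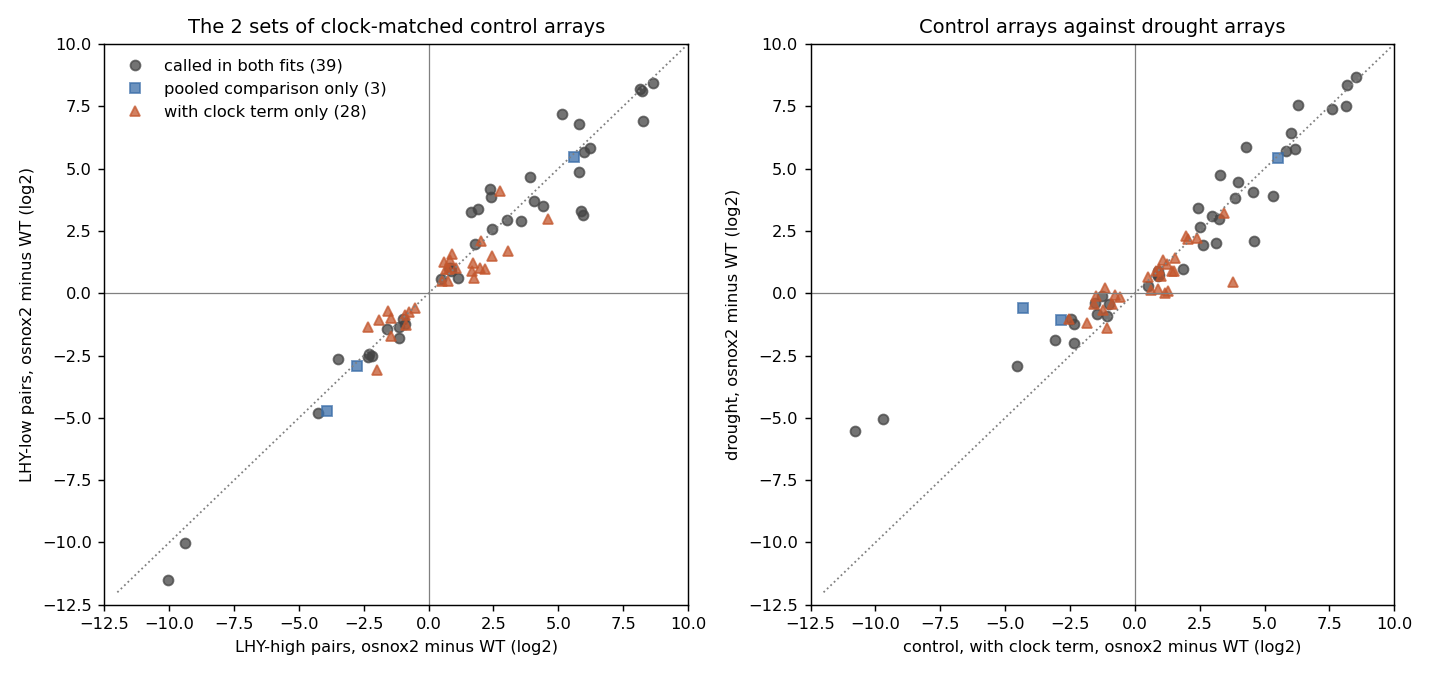
Each point is 1 of the 70 probe sets called in either fit of the control arrays, and both axes give osnox2 minus WT on the log2 scale, with a dotted line where they are equal. On the left the LHY-high pairs are set against the LHY-low pairs and every point has the same sign on both axes. On the right the control difference with the clock term is set against the difference on the drought arrays, where the 2 lowest points, at -10.79 and -9.71 under control, stand at -5.52 and -5.06.

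Heat shock protein genes made up the 3 genes with a symbol that were higher only with the clock term. HSP24.1 (chromosome 2, 32416184 to 32417737), a small heat shock protein that keeps damaged proteins soluble, read 10.98, 8.35 and 8.27 in WT and 13.14, 13.14 and 9.27 in osnox2. These groups overlapped. Matched by clock set, osnox2 was above WT in both sets, by 2.16 where LHY was high and by 0.96 where it was low. Pooled, the difference was 2.65 ± 0.97 (limma adjusted p = 0.688), and with the clock term it was 1.56 ± 0.25 (limma adjusted p = 0.0432).

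HSP81-3 (chromosome 9, 22909601 to 22913916) and HSP81-1 (chromosome 8, 24864593 to 24869042) encode chaperones of the HSP90 family, which fold kinases, receptors and other signalling proteins. HSP81-3 read 11.93, 11.16 and 11.16 in WT and 12.61, 12.43 and 12.41 in osnox2, and HSP81-1 read 13.87, 12.94 and 13.11 in WT and 14.46, 14.28 and 13.54 in osnox2. HSP81-3 did not overlap between the genotypes, while HSP81-1 did until the clock sets were kept apart. With the clock term the differences were 0.92 ± 0.14 (limma adjusted p = 0.0336) and 0.51 ± 0.08 (limma adjusted p = 0.0432). The HSP81-1 difference was 0.51 in each clock set, and that of HSP81-3 was 0.60 in the LHY-high and 1.25 in the LHY-low pairs. Other probe sets of HSP81-3 gave 0.37, 0.62 and 0.26 with the clock term and were not called. The calls of HSP24.1, HSP81-3 and HSP81-1 were lost in 9, 6 and 10 of the 12 fits that left out 1 array, with an adjusted p of up to 0.137, 0.104 and 0.124.

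On the drought arrays the 3 called probe sets were again above WT. HSP24.1 read 11.05, 10.75 and 10.63 in WT and 12.57, 12.09 and 11.99 in osnox2 (limma adjusted p = 0.0402 on the drought arrays alone). HSP81-3 differed there by 0.97 (limma adjusted p = 0.017) and HSP81-1 by 0.63 (limma adjusted p = 0.0194) on the drought arrays alone, again without overlap. In the fit of all 12 arrays none of the 3 passed under drought (limma adjusted p = 0.9999, 0.15 and 0.931 for HSP24.1, HSP81-3 and HSP81-1). The dimmer probe set of HSP81-1 gave 0.42 with the clock term and -0.11 under drought, with overlapping drought groups. Of the 58 kept probe sets of the heat shock list, 3 were called higher and none lower with the clock term, against 0.141% and 0.0687% of all probe sets, and none was called in the pooled fit. The list's median with the clock term was 0.26, against -0.03 over all probe sets. All 4 matched differences were above 0 for 17 of them (29.3%, against 11.2% of all probe sets) and below 0 for 7 (12.1%, against 13.9%). By set, the median was 0.44 in the LHY-high pairs and -0.04 in the LHY-low pairs, which differ in sign. The small heat shock protein HSP17.9B went the other way, at -0.74 and -1.08 in the 2 sets, and did not pass (-0.91 with the clock term, limma adjusted p = 0.051).

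**Figure D4:**
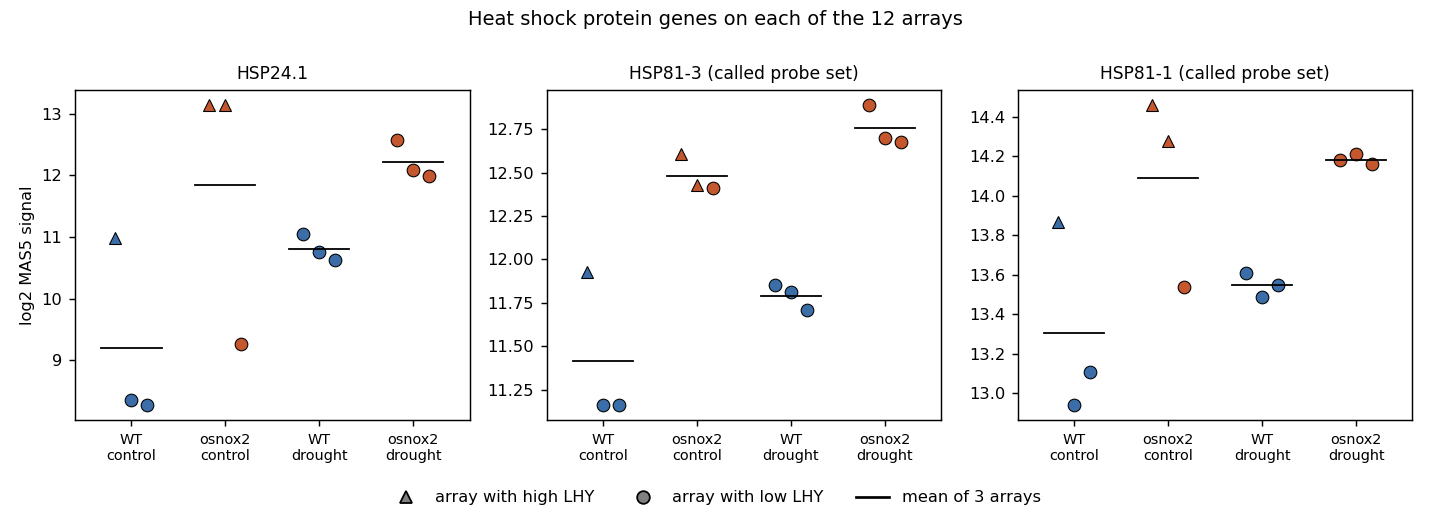
Log2 MAS5 signal (vertical axis, a different range in each panel) of the called probe sets of HSP24.1, HSP81-3 and HSP81-1, with 1 point for each of the 12 arrays, triangles for the 3 arrays with high LHY and a bar at the mean of each group of 3. Among points of the same shape osnox2 lies above WT in each panel under control, and under drought the osnox2 points lie above the WT points.

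Lower only with the clock term and with a symbol were MADS16 and XBOS36. MADS16 (chromosome 6, 31042170 to 31046748), a floral homeotic gene of the MADS box family, read 9.94, 8.97 and 9.18 in WT and 8.34, 8.63 and 7.36 in osnox2. It was lower by -1.58 ± 0.20 (limma adjusted p = 0.0174), and its call was lost without osnox2 control replicate 1 (adjusted p = 0.067) or WT control replicate 3 (adjusted p = 0.0588). XBOS36 (chromosome 6, 1677650 to 1682988), named for a family of ubiquitin ligases, was lower by -1.50 ± 0.19 (limma adjusted p = 0.0147) on a probe set marked for possible cross-hybridisation. Its call was lost without osnox2 control replicate 1 or 2 or WT control replicate 1, where the adjusted p was at most 0.0594. Under drought the differences were -0.41 and -0.12, and the groups of both genes overlapped. A second, dimmer probe set of XBOS36 gave -1.53 ± 0.78 with the clock term (limma adjusted p = 0.583) and -1.16 under drought. The contrast of the control and drought differences called no probe set of 32012, against 1075 with an unadjusted p under 0.05 (limma). That contrast was fitted without the clock term, so its spread holds the difference between the clock sets. On the called probe set of XBOS36 it gave -0.92 ± 0.62. No difference between the 2 conditions was detected in that fit. It cannot decide this for genes called only with the clock term.

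The drought arrays gave a second reading of the genotypes. Of the 28 higher pooled calls, 14 did not pass the filter on the 6 WT arrays and were kept through osnox2 arrays, drought ones included, so their drought values carry no weight here. In the other 14 the drought groups did not overlap, against 8.26% of all probe sets in that direction. Of these 14, 7 were called under drought in the fit of all 12 arrays and 8 on the drought arrays alone, where 0.0906% and 0.181% of all probe sets were called higher. Of the 14 lower calls, 9 passed the filter on the 6 osnox2 arrays, and in 7 of these the drought groups did not overlap (8.21% of all probe sets). None of the 9 was called lower under drought in the fit of all 12 arrays (0.0125% of all probe sets), and 1, METK3, was called on the drought arrays alone (0.0687%). Over all probe sets, all 6 osnox2 arrays were above all 6 WT arrays in 0.456% and below them in 0.372%.

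Jasmonate genes other than JAZ2 gave no call in either control fit. The list holds the biosynthetic enzymes (lipoxygenases, allene oxide synthase and cyclase, OPR reductases), the receptor COI1 and the JAZ repressors, in 36 kept probe sets. Its median was -0.21 with the clock term, against -0.03 over all. All 4 matched differences were below 0 for 9 (25%, against 13.9% of all probe sets) and above 0 for 4 (11.1%, against 11.2%). JAMYB, a transcription factor induced by jasmonate, read 8.73, 8.99 and 8.09 in WT and 7.16, 6.78 and 7.54 in osnox2, without overlap, and its -1.38 with the clock term did not pass (limma adjusted p = 0.132). The lipoxygenase gene LOX9 was in the other direction, at 9.2, 8.77 and 9.19 in WT and 10.31, 9.98 and 10.93 in osnox2, and its 1.44 did not pass either (limma adjusted p = 0.194). Of the 13 kept probe sets for S-adenosylmethionine and ethylene genes, METK3 was the only call, lower in both fits, against 0.0437% of all probe sets pooled and 0.0687% with the clock term. The list's median was -0.09.

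The chlorophyll synthesis list's 13 kept probe sets had a pooled median of 1.30, against -0.06 over all probe sets, and none was called. In the LHY-high pairs the median was 0.76 and in the LHY-low pairs 0.12. CHLH, a subunit of the magnesium chelatase that starts the chlorophyll branch, read 13.84 on the LHY-high WT array and 11.35 and 11.45 on the others, and in osnox2 14.58, 14.56 and 11.92 in the same way. CHLD, another subunit of that enzyme, did not have this pattern and read 12.04, 12.45 and 12.34 in WT and 12.61, 12.55 and 12.76 in osnox2, without overlap, and its 0.45 ± 0.10 with the clock term did not pass (limma adjusted p = 0.148). Over all probe sets 3.55% did not overlap in this direction. GSA, an enzyme of the first steps to tetrapyrroles, did not overlap on its brighter probe set, with 0.55 ± 0.16 (limma adjusted p = 0.304), but did on its dimmer one, with 1.95 ± 0.72. All 4 matched differences were above 0 for 6 of the 13 (46.2%, against 11.2% of all probe sets) and below 0 for none (against 13.9%). Under drought the list's median was 0.03.

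Aquaporins, the membrane channels for water, went in opposite directions in the 2 clock sets for 18 of 26 kept probe sets, against 33.6% of all probe sets. PIP2-2 read 12.92 on the LHY-high WT array and 14.13 and 14.36 on its osnox2 partners, but 12.34 and 12.30 on the LHY-low WT arrays and 11.70 on their osnox2 partner. The list's median was 0.50 in the first set, -0.65 in the second and -0.01 with the clock term, and no member was called. The 6 kept probe sets of dehydrin and LEA genes, whose proteins protect drying cells, had medians of 0.60 and -0.93 in the 2 sets. RAB16C read 2.38 on WT replicate 1 and 7.45 and 6.08 on osnox2 replicates 1 and 2, but 8.46 and 8.30 on WT replicates 2 and 3 and 6.75 on osnox2 replicate 3.

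**Figure D5:**
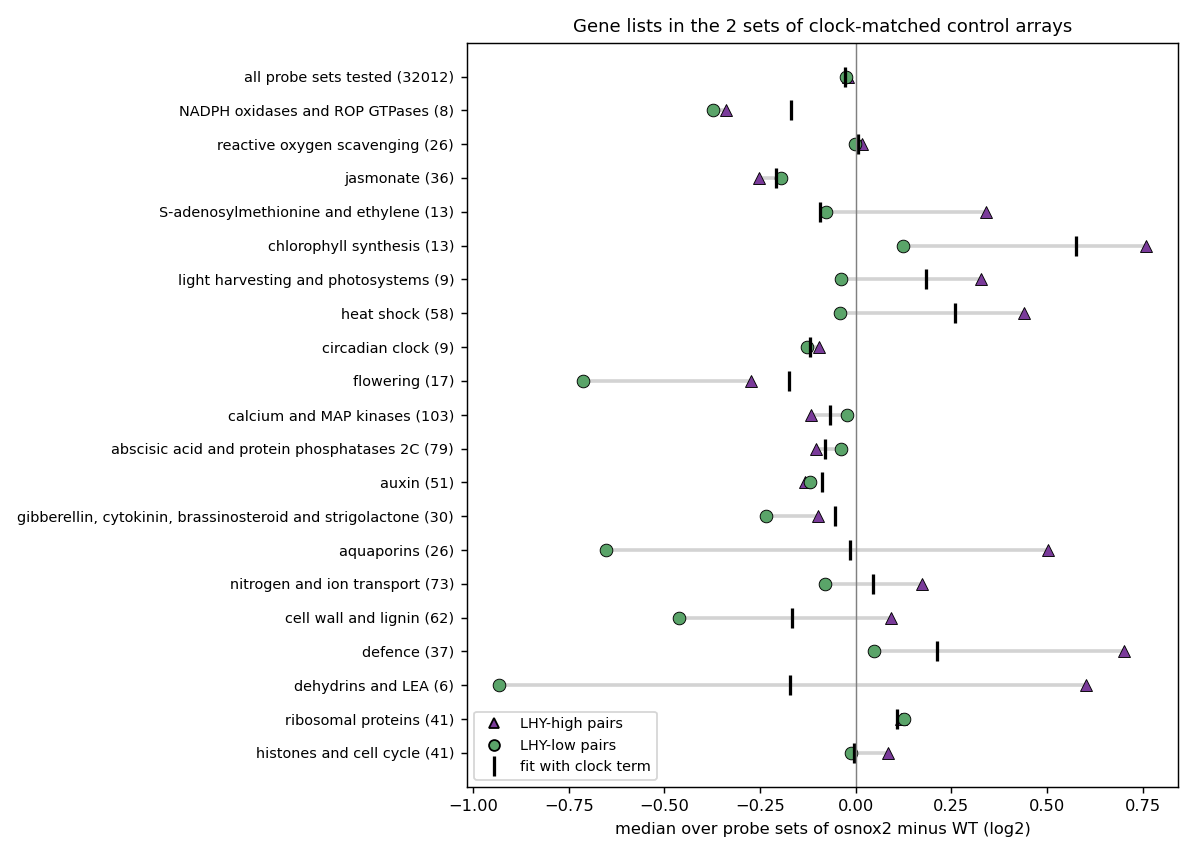
Median of osnox2 minus WT on the log2 scale (horizontal axis) over the kept probe sets of each gene list, whose number stands in brackets, in the LHY-high pairs (triangles), the LHY-low pairs (circles) and the fit with the clock term (bars). The ribosomal protein medians of the 2 sets lie together at 0.12 and 0.13, while those of the aquaporins lie at 0.50 and -0.65.

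Genes that remove reactive oxygen gave no call in either fit. The 26 kept probe sets of catalases, ascorbate peroxidases, superoxide dismutases and related enzymes had a median of 0.01 with the clock term. CatB, a catalase, read 11.29, 11.86 and 11.86 in WT and 10.59, 10.85 and 11.51 in osnox2, with -0.46 ± 0.12 (limma adjusted p = 0.258). Under drought this probe set differed by -0.002. Other probe sets of CatB gave -0.35, -0.32, -0.14 and 0.04 with the clock term. The gene catA was in the other direction at 0.57 (limma adjusted p = 0.345). SodCc2, a cytosolic superoxide dismutase, differed by -0.99 ± 0.28 (limma adjusted p = 0.288), with -1.63 in the LHY-high and -0.36 in the LHY-low pairs. The 41 kept probe sets of ribosomal proteins had a median of 0.11, against -0.03 over all probe sets, and no call. All 4 matched differences were above 0 for 16 (39.0%, against 11.2% of all probe sets) and below 0 for none (against 13.9%).

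Defence, calcium and hormone lists gave no further call with the clock term. Pir7b, an esterase gene named for its induction by pathogens, read 5.18, 7.14 and 6.55 in WT and 7.67, 7.88 and 8.55 in osnox2, and its 2.14 ± 0.37 stood just outside the threshold (limma adjusted p = 0.051). Its groups did not overlap, and on the drought arrays alone its 2.86 was called (limma adjusted p = 0.0392), but not in the fit of all 12 arrays (limma adjusted p = 0.0888). Cht2, a chitinase gene, read 5.77, 11.96 and 12.12 in WT and 8.35, 8.32 and 12.85 in osnox2, a difference of -0.11 pooled and 1.69 ± 0.35 with the clock term (limma adjusted p = 0.113). Its second kept probe set gave 0.67 and 2.79 ± 0.64. The cytokinin response regulator RR6 read 10.19, 9.99 and 10.09 in WT and 11.64, 11.36 and 10.70 in osnox2, without overlap (0.99 ± 0.24, limma adjusted p = 0.192). ZIP1 at LOC4342782, a transporter of the zinc and iron family, did not overlap either (0.94 ± 0.22, limma adjusted p = 0.156). Over all probe sets 3.55% did not overlap in this direction under control. Under drought RR6 differed by 0.11 and ZIP1 by 0.05, and the groups of both overlapped. The medians with the clock term were 0.21 for 37 defence probe sets, -0.07 for 103 of calcium sensors and MAP kinases, -0.08 for 79 of abscisic acid and its phosphatases, -0.09 for 51 of auxin and -0.05 for 30 of gibberellin, cytokinin, brassinosteroid and strigolactone.

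The flowering regulator Hd1 read 6.41, 9.71 and 9.64 in WT and 5.34, 5.99 and 8.86 in osnox2, lower within each clock set by -0.74 and -0.81, and it did not pass (-0.78 ± 0.22, limma adjusted p = 0.301). MADS18, of the same list of 17 kept probe sets, gave -0.52 ± 0.14 (limma adjusted p = 0.271). No member was called, and the list's median was -0.17. Of 62 probe sets for cell wall and lignin genes none was called, with EXP16, an expansin, at -1.82 ± 0.58 (limma adjusted p = 0.347) and CESA9, a cellulose synthase, at -1.84 ± 0.64 (limma adjusted p = 0.393). Both sizes rest partly on signals near background: with the offset of 64 they were -0.65 and -0.55. The 73 probe sets for nitrogen and ion transport (median 0.04), the 41 for histones and the cell cycle (pooled median -0.03) and the 9 for light harvesting and photosystems (median 0.18) held no call either.

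The other members with the smallest p of lists without a call did not pass with the clock term. The kinase SAPK5 gave -0.49 ± 0.11 (limma adjusted p = 0.154) and the phosphatase PP2C33 -1.36 ± 0.54, both of the abscisic acid list. Of the auxin list, the response factor ARF14 gave 0.62 ± 0.17 and the repressor IAA21 -0.42 ± 0.13. CKX3, an enzyme that breaks down cytokinin, gave 2.48 ± 0.66, and the metal transporter NRAMP5 -2.08 ± 0.50 (limma adjusted p = 0.184). The aquaporin NIP1-1 gave -1.43 ± 0.64. TIP4-1 gave 1.83 ± 0.60, or 0.23 to 3.44 without 1 array, and 0.095 ± 0.22 on a second probe set. With the offset of 64, PP2C33 gave -0.37, CKX3 0.71, NRAMP5 -0.67, NIP1-1 -0.41 and the first probe set of TIP4-1 0.32. The sizes of these genes without the offset rest partly on signals near background. The ribosomal proteins RPL9 and RPS10-1 gave 0.33 ± 0.10 and 0.29 ± 0.09, and the cyclins CYCD3-1 and CYCA1-4 gave 0.54 ± 0.20 and -0.28 ± 0.12. PSAG, a photosystem I subunit, gave 0.60 ± 0.30 on one probe set and -0.18 ± 0.11 on the other, and LHCP, a light-harvesting protein, 0.29 ± 0.14.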

How the data were processed

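Leaf RNA of 12 samples was read on Affymetrix rice arrays, 3 for each genotype and condition. The deposited values are log2 signals made by the authors with MAS5, per the submitters' processing notes, with the version not given in the sources used here. MAS5 scales each array, so an overall change in RNA is not seen. From 57258 probe sets, 64 reporter controls were left out, and 32012 passed the filter, which asked for a signal over the array median on 3 or more arrays. Of these 18636 matched 1 gene. Over all probe sets 22436 matched 1 gene, 95 several and 34663 none. Gene positions are those of assembly ASM3414082v1.

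limma 3.58.1 (R 4.3.3, lmFit and eBayes with a trend) was fitted on all 12 arrays, two-sided, with Benjamini-Hochberg adjustment over all kept probe sets and calls at an adjusted p under 0.05. A second fit added a term for the clock set of the control arrays. The sets were defined by the LHY signal, an expression value of the same arrays. The scripts were tested on simulated data. Genes named are those called in the pooled comparison that match 1 gene (up to 15 in each direction), those with a symbol called with the clock term (up to 8 in each direction), up to 4 called members of each list or the 2 with the smallest p where none was called, and the NADPH oxidase and clock genes. CHLH, PIP2-2, JAMYB, LOX9, catA and HSP17.9B fall outside that rule and were chosen after their values were seen. The members and lists were chosen with earlier results of these data known. Alternatives were the filter, offset, normalization, trend, arrays in the fit, replicate block and leaving out each array.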

Additional observations from a re-analysis of the deposited data

Results flagged for a closer look

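In 5 named genes the 2 clock sets went in opposite directions, a difference that was not tested. RAB16C was at 4.38 (osnox2 minus WT) in the LHY-high pairs and -1.63 in the LHY-low pairs, and RAB21 at 1.95 and -3.82. The 4.38 of RAB16C rests on a single WT array, replicate 1, at 2.38. RAB21 read 0.26 to 5.29 on the control arrays, near background. Its other kept probe set, also near background, gave 0.81 and -0.55. The clock genes LHY (-0.25 and 0.89), PRR1 (-0.13 and 0.18) and PRR95 (-0.02 and 0.09) did so by smaller amounts.

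The ribosomal protein gene RPS10-1 was 0.25 higher in osnox2 under control and differed by -0.14 under drought, with no overlap between the genotypes in either condition. The contrast of the conditions for this gene, fitted without the clock term, was 0.39 ± 0.15 (limma, unadjusted p = 0.0212, adjusted p = 0.986) and did not pass. None of 32012 probe sets passed that contrast, against 1075 at an unadjusted p under 0.05.

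Of the 64 reporter control probe sets, which no comparison used, 2 had all 6 osnox2 arrays above all 6 WT arrays and 0 had the reverse. The brighter read 0.73, 2.49 and 2.64 in WT and 12.45, 12.49 and 12.87 in osnox2 under control, a difference of 10.65, and 10.87 under drought. The other read 2.90, 4.60 and 3.03 in WT and 7.11, 6.91 and 6.12 in osnox2 under control, a difference of 3.2, and 5.31 under drought. The highest signal of the other 62 on any array was 6.73. Groups of 3 arrays were too small to test for an array far from the others.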

How the results depend on the processing

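No called named gene changed direction under any alternative run. The 42 pooled calls became 21 with the filter at the 75th percentile, 15 on the 6 control arrays alone, 67 with the clock term, 332 with 5 cell means (chosen after seeing the data), 88 without the 3 LHY-high arrays and 13 to 1249 without 1 array. The 67 calls with the clock term became 24 without the trend, 20 on the 6 control arrays alone and 20 to 1488 without 1 array. The 33 drought calls became 80 on the drought arrays alone. With replicate number as a block 17 and 27 were called. Residuals of same-numbered control arrays correlated at 0.342, -0.251 and 0.368 for replicates 1, 2 and 3. These residuals still hold the clock sets, which the 2 genotypes share in replicates 1 and 3 but not in replicate 2. The correlations therefore cannot decide whether the numbers pair the arrays, and the main fits did not pair them. The cause of the shifts in the number of calls was not tested. Among named genes that were not called, some pooled values turned. RAB16C gave -0.13 and -0.34 with offsets of 16 and 64, -1.62 to 1.42 without 1 array and -1.63 without the 3 LHY-high arrays. TIP4-1 gave -0.043 with the offset of 64 and -1.04 to 1.61 without 1 array. Cht2 gave -2.20 to 0.98 without 1 array, 1.69 with the clock term or with separate means for the clock sets, and 0.81 without the 3 arrays. Without 1 array, MADS18 (-0.46 to 0.093), RAB21 (-1.20 to 1.02) and CYCD3-1 (-0.14 to 0.47) turned as well. With the clock term LHY (-0.25 to 0.89), RAB21 (-3.82 to 1.95) and RAB16C (-1.63 to 4.38) turned without 1 array. Signals near background limit the size of a fold.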

Other observations

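The 2 probe sets with the lowest differences match no gene of the annotation and were chosen after their values were seen. The first read 11.8, 11.05 and 12.23 in WT and 1.05, 2.42 and 0.11 in osnox2 under control, and under drought 12.83, 12.02 and 10.26 in WT and 3.97, 10.86 and 3.72 in osnox2. The second read 11.64, 10.71 and 11.58 in WT and 0.44, 4.06 and 1.11 in osnox2 under control, and under drought 12.29, 11.59 and 9.98 in WT and 4.36, 10.24 and 4.07 in osnox2. In both, osnox2 drought replicate 2 stood with the WT arrays rather than with the other osnox2 arrays. The pooled control differences were -10.49 ± 1.58 (limma adjusted p = 0.0448) and -9.44 ± 1.49 (limma adjusted p = 0.0485).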
